A study of Homo sapiens with 8 samples.

Results

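Genes whose expression differed between docetaxel resistant and docetaxel sensitive PCa cells in the same direction and by a similar amount in both DU145 and PC3 were identified in bulk RNA-seq. Of 20238 genes tested over 8 libraries, 449 were higher and 435 were lower in the resistant cells of both lines by this rule. A gene had to pass the test of resistant against sensitive cells with line as a covariate (adjusted p under 0.05) and change in the same direction within each line. In each line both resistant libraries had to lie above, or both below, the sensitive ones. The lack of overlap stated below for genes of this set therefore follows from the rule. The smaller of the 2 within-line log2 fold changes also had to be at least 0.5 of the larger.

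DU145 and PC3 are human prostate cancer lines established from metastases. Each was measured as 1 sensitive variant, kept in medium with 0.1% DMSO, and 1 resistant variant, kept in 10 nM docetaxel, with 2 libraries per group. A SMART-seq kit was used on total RNA for all libraries. Since each line has a single resistant derivative, the drug, the selection and the history of that derivative cannot be told apart. For single cell samples of these variants the study's methods describe a spell without docetaxel before harvest. Whether this also holds for the bulk libraries, and whether replicate libraries are separate cultures, is not stated. The p-values of a change within a line, or of its difference between the lines, therefore measure only the spread between these libraries. That spread may be technical. In the test with line as a covariate, the error also holds any difference between the lines in the change.

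Total counts ranged from 31685148 to 43045127 per library, and mitochondrial genes held 0.501% to 2.07% of them. The lines could be told apart by CTNNA1, the alpha-catenin gene that PC3 cells are known to lack. It was at 474 to 559 CPM (counts relative to the library total, after TMM scaling) in DU145 and at 2.06 to 3.34 in PC3. Epithelial junction genes summed to 1940 to 6470 CPM. The 6 leukocyte markers tested summed to 1.19 to 9.35 CPM and the 8 fibroblast and endothelial markers to 5.69 to 80.6 CPM, and 0 members of either list passed the additive test. Within PC3, 3 members of each list were higher in resistant cells and 1 fibroblast or endothelial marker was lower: the leukocyte sum was 1.19 and 2.53 CPM in sensitive and 3.37 and 9.35 in resistant libraries, and the other sum 31.5 and 42.4 against 45.0 and 80.6. Their part in the results below was not tested.

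Docetaxel stabilizes microtubules and arrests dividing cells in mitosis. Cells kept in taxanes are known to survive by pumping the drug out through ABC transporters, by altering tubulin, or by tolerating the arrest and the stress it brings. A second resistant line is commonly used to ask which changes recur.

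The upstream sequences of 4 genes are shown. ILDR2 and ANKRD1 were higher and CGREF1 was lower in both resistant lines by nearly the same factor, and ABCB1, the drug pump gene, was higher in both by unlike amounts. Each is the 250 bases before the annotated start, 5′ to 3′, from RefSeq (GRCh38.p14), all on the minus strand. They lie at chr1:166975541-166975790 (ILDR2), chr10:90921088-90921337 (ANKRD1), chr7:87713296-87713545 (ABCB1) and chr2:27119129-27119378 (CGREF1). Capitals mark the letters CACGTG (E-box, in ILDR2 and CGREF1) and TGANTCA (AP-1 site, in ANKRD1).
ILDR2: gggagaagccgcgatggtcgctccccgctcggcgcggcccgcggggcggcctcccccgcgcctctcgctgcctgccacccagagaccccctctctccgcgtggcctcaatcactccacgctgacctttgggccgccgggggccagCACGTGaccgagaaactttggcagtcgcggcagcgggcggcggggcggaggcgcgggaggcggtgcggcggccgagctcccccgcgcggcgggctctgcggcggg
ANKRD1: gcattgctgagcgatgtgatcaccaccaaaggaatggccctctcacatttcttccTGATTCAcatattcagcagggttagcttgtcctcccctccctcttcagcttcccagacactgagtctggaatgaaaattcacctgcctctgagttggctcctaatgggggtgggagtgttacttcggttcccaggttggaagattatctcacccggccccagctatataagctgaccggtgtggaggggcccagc
ABCB1: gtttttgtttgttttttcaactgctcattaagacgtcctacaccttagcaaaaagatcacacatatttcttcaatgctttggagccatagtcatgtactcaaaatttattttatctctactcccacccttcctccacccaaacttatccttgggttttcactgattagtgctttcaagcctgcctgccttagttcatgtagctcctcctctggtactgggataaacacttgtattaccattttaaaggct
CGREF1: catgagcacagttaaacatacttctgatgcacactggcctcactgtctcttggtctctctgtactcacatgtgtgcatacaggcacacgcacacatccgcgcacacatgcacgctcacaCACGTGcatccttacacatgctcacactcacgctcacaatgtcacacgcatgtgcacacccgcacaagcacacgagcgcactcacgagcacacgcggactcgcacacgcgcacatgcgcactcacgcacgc

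The windows were searched on both strands for 10 motifs: the E-box and AP-1 letters given above, the CCAAT box, the ETS site (CCGGAAG), the NRF1 site (CGCATGCG), the cyclic AMP response element (TGACGTCA), the amino acid response element (TGATGCAA), the E2F site (TTTGGCGC), the antioxidant response element core (TGACNNNGC) and the TATA box (TATAAA). The E-box letters are in 8.54% and the AP-1 letters in 4.47% of the 11939 promoters of tested genes that have a sequence of this length. The ABCB1 window held 0 of the 10 motifs, which says only that these letters are not in it. A single window per gene was searched, so any other start of ABCB1 or of the other genes is not covered. Promoters were at hand for 70.8% of the genes higher and 66.7% of the genes lower in both lines, too few for a comparison of motif shares or GC content between the sets, which is void for that reason.

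Fewer genes passed the additive test of a common change than passed within either line, in tests that differ in what they count as error. Within DU145, 12.4% of genes had more RNA and 15.4% had less in the resistant cells (adjusted p under 0.05, edgeR). Within PC3 these shares were 18.6% and 17%. In the additive test, which asks for 1 change common to both lines, 694 genes (3.43%) were higher and 637 (3.15%) lower. This test counts a difference between the lines as error, which the within-line tests do not, so the counts are not like for like. When the average of the within-line changes was tested instead, 2872 genes were higher and 3003 lower. A difference between the lines in the size of the change passed for 6951 genes (34.3%), and 1407 genes (6.95%) passed in both lines in opposite directions. Across all genes tested, Pearson's r of the DU145 and PC3 log2 fold changes was -0.05 and Spearman's rho -0.07, a description across genes, which are not independent replicates.

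Of the 1331 genes past the additive test, 1270 (95.4%) changed in the same direction in both lines. In 1180 (88.7%) the resistant and sensitive libraries did not overlap in either line. Since that test counts a difference between the lines as error, both shares largely follow from passing it. They are not evidence that the lines agree. Over all genes tested, 9.74% were higher and 10.6% lower in both lines without overlap, so the absence of overlap alone is a weak criterion here. With the size limit, 449 genes higher (2.22% of all tested) and 435 lower (2.15%) remained, together 884 (4.37% of all tested and 66.4% of the 1331). These counts moved with each library left out, to between 119 and 275 higher and between 135 and 285 lower, so they are not a stable number of genes. When genes were instead required to pass in DU145 and in PC3 separately, with no limit on size or overlap, 531 genes (2.62%) were higher and 563 (2.78%) lower in both, and 769 (87.0%) of the 884 genes changed alike were among them.

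**Figure D1:**
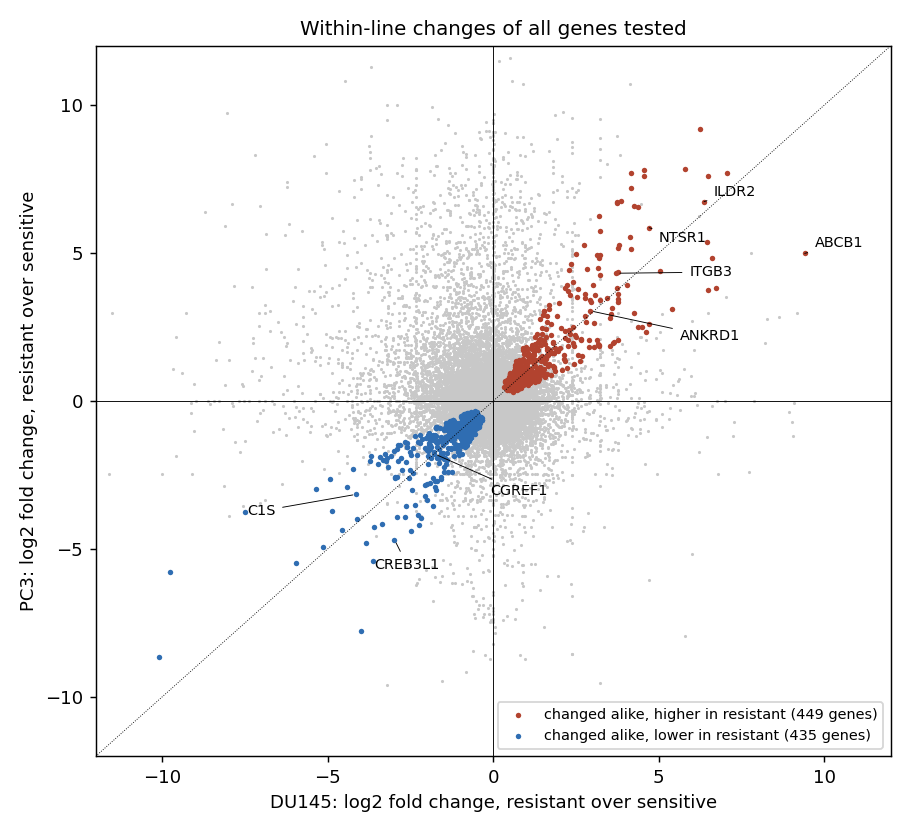
Log2 fold change of resistant over sensitive cells in DU145 (horizontal) and PC3 (vertical) for 20238 genes, with the 449 genes higher (red) and 435 lower (blue) in both lines coloured and the dotted line marking equal change. Grey genes fill all 4 quadrants, and the coloured genes lie along the dotted line because the rule placed them there.

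Genes were also chosen in 1 line alone and followed in the other, in fits that share no library. Of 1873 genes called higher in DU145, 25.6% were called higher in PC3, against 21.2% of all genes, and 23.1% were called lower, against 19%. Of 2579 genes called lower in DU145, 19% were called lower in PC3, the same share as over all genes, and 29% were called higher, against 21.2%. The median PC3 log2 fold change was 0.02 for the former set and 0.14 for the latter, beside 0.03 over all genes.

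The size of the shared changes varied widely. The additive log2 fold change of the 449 higher genes had a median of 1.08, with quartiles of 0.73 and 1.97, and that of the 435 lower genes a median of -0.98, with quartiles of -1.64 and -0.70. A log2 fold change of at least 1 in each line was seen for 204 of the higher and 164 of the lower genes, 41.6% of both together. The median absolute difference between the lines was 0.32 and 0.30, and a test of that difference passed for 44 of the 884 genes (4.98%). The size limit and the additive test both select for a small difference, so these values follow from the choice of genes. Protein coding genes made up 88.6% of the higher and 91.0% of the lower genes, and 73.2% of all genes tested. In 20 of the higher and 13 of the lower genes, 1 line's level was under 2% of the other's, so that a small share of reads carried between libraries could not be told apart from expression. Leaving these out, a choice made after the data were seen, left 429 and 422 genes.

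ILDR2, an immunoglobulin-like domain receptor gene, had a large rise of similar size in both lines. Its level was 0.252 and 0.310 CPM in sensitive and 26.5 and 20.8 in resistant DU145 cells, and 0.122 and 0.0973 in sensitive and 12.2 and 12.1 in resistant PC3 cells. All 4 resistant libraries lay far above all 4 sensitive ones. The additive log2 fold change was 6.53 ± 0.26 (SE, n = 4 against 4; adjusted p = 0.000137, edgeR), and the PC3 change minus the DU145 change was 0.37 (95% interval -1.03 to 1.77). In bulk RNA a larger share of cells expressing a gene and more RNA per cell cannot be told apart, here and in every result that follows.

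ABCB1 encodes P-glycoprotein, the efflux pump for which taxanes are a known substrate. It was at 1.68 and 1.58 CPM in sensitive and 1220 and 1010 CPM in resistant DU145 cells. In PC3 it was at 2.19 and 3.47 CPM in sensitive and 94.8 and 84.4 CPM in resistant cells. The groups did not overlap in either line, but the resistant DU145 libraries stood above the resistant PC3 libraries. The additive log2 fold change was 7.17 ± 1.04 (SE; adjusted p = 0.0129, edgeR). The rise was smaller in PC3 than in DU145 by 4.43 on the log2 scale (95% interval of the difference -5.27 to -3.58; adjusted p = 3.5e-06, edgeR), and its size ratio of 0.53 only just met the limit. ABCB4, a phospholipid transporter gene, is the neighbour of ABCB1 and similar to it in sequence. It was at 0.028 to 0.122 CPM in the 4 sensitive libraries. In resistant cells ABCB4 was at 1.33 and 4.16 CPM in DU145 and at 6.71 and 1.47 in PC3. Whether reads of ABCB1 were assigned to ABCB4 by the authors' counting was not tested, so the ABCB4 value is uncertain. Of the 8 efflux transporter genes tested, 1 other passed the additive test: ABCC3, which was lower in both lines (additive log2 fold change -0.92 ± 0.17; adjusted p = 0.0218, edgeR) and kept its call in only 2 of the 8 fits that each left out 1 library, the highest adjusted p being 0.0754.

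Of the 15 coding genes with the largest shared rise, several encode receptors or secreted factors. NTSR1, the high affinity neurotensin receptor, was at 0.196 and 0.310 CPM in sensitive and 6.06 and 7.33 in resistant DU145 cells. In PC3 it was at 2.04 and 1.75 in sensitive and 72.1 and 149 in resistant cells. The resistant libraries were above the sensitive ones in each line, and the additive log2 fold change was 5.40 ± 0.38 (SE; adjusted p = 0.00219, edgeR). NOG, which encodes the BMP antagonist noggin, rose from 1.68 and 2.17 CPM to 29.2 and 27.1 in DU145 and from 1.71 and 3.5 to 257 and 311 in PC3. The sensitive libraries of the lines overlapped in level, and the rise was larger in PC3 by 2.91 on the log2 scale (95% interval 1.86 to 3.95). STC1, the secreted glycoprotein stanniocalcin, rose from 2.27 and 2.48 CPM to 8.15 and 24.8 in DU145. It rose from 8.29 and 12 to 39.2 and 88.6 in PC3, with the 2 resistant libraries of each line well apart from each other.

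Others of the 15 encode proteins of cell adhesion and the matrix. ITGB3, the integrin beta-3 subunit, was at 0.981 and 1.13 CPM in sensitive and 13.1 and 14.8 in resistant DU145 cells. In PC3 it was at 3.29 and 3.53 in sensitive and 29.9 and 106 in resistant cells. The groups did not overlap, and the additive log2 fold change was 4.03 ± 0.41 (SE; adjusted p = 0.00504, edgeR). COL17A1, a hemidesmosome collagen, rose from between 1.72 and 2.44 CPM to between 13.4 and 18.4 in DU145 and from between 0.548 and 1.39 to between 7.47 and 13.0 in PC3. ADAMTS6, a secreted metalloprotease, rose from at most 1.49 to at least 12.4 CPM in DU145 and from at most 6.13 to at least 15.7 CPM in PC3.

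ANKRD1, an ankyrin repeat protein gene known as a target of the Hippo pathway effectors YAP and TAZ, had nearly the same change in both lines from very different levels. It was at 59.8 and 84.1 CPM in sensitive and 615 and 478 in resistant DU145 cells, and at 3.84 and 3.63 in sensitive and 36.0 and 25.9 in resistant PC3 cells. Resistant DU145 cells thus had the highest and sensitive PC3 cells the lowest level. The log2 fold change was 2.93 in DU145 and 3.05 in PC3, with a difference of 0.12 (95% interval -0.73 to 0.97), and the additive value was 2.98 ± 0.18 (SE; adjusted p = 0.00162, edgeR).

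The other genes of the 15 were TMEM200A, CD163L1, RTN1, STXBP6, TRABD2A and DNAJC6. TMEM200A was at 0 counts in both sensitive DU145 libraries and at 15 and 6 counts in the resistant ones, at least 7.33-fold higher against a floor of 3 counts over the group. In PC3 it was at 0.122 and 0.130 CPM in sensitive and 23.4 and 26.8 in resistant cells, so that its DU145 level was 1.24% of its PC3 level. CD163L1, a scavenger receptor gene, was at 0.645 and 0.790 CPM in sensitive and 14.3 and 19.6 in resistant DU145 cells, while its PC3 counts were 0 and 1 in the sensitive and 238 and 127 in the resistant libraries. STXBP6, which binds the SNARE complex, rose from at most 0.0841 to at least 0.639 CPM in DU145 and from at most 0.324 to at least 22.9 CPM in PC3. For RTN1, a reticulon of the endoplasmic reticulum, and DNAJC6, the clathrin uncoating factor auxilin, the rise was larger in PC3, by 3.04 and 2.47 on the log2 scale. TRABD2A, a metalloprotease that acts on Wnt proteins, rose from between 2.62 and 3.03 CPM to between 23 and 27.8 in DU145 and from between 0.292 and 0.366 to between 5.64 and 9.22 in PC3. All 15 of these genes kept their call in each of the 8 fits that left out 1 library.

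**Figure D2:**
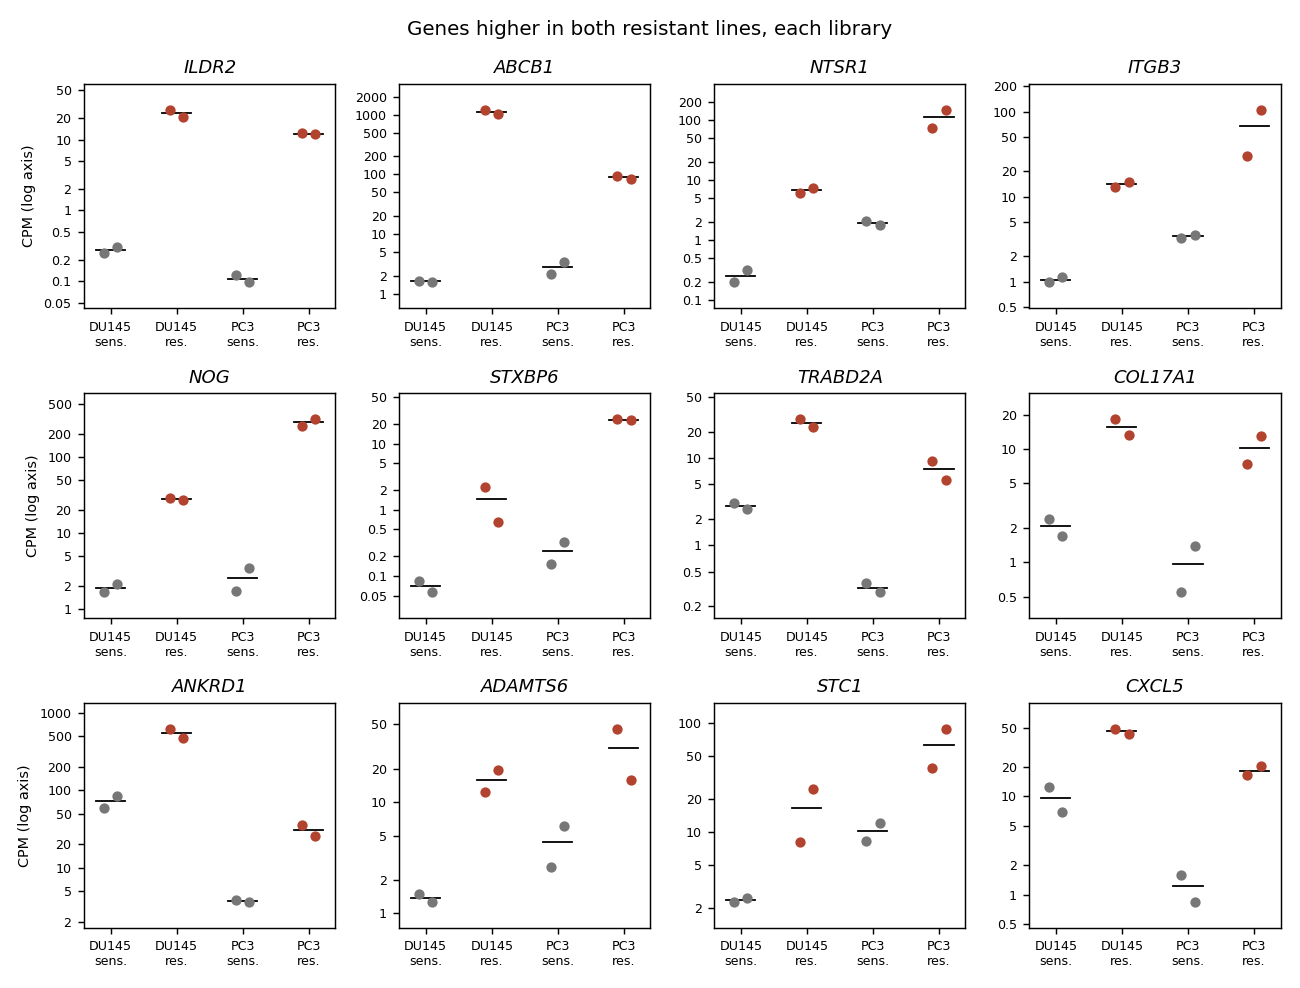
CPM (log axis) in each library for 12 genes higher in both resistant lines, with grey points for sensitive and red points for resistant libraries and a bar at the group mean. In every panel both red points of a line lie above both grey points of that line, as the rule requires. For ADAMTS6, STC1 and ITGB3 the 2 resistant PC3 points lie apart.

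Among coding genes averaging at least 5 CPM, C1S had the largest shared fall by the smaller of its within-line changes. C1S and C1R encode the serine proteases of the first complement component and are neighbours on chromosome 12. C1S was at 57.9 and 34.3 CPM in sensitive and 1.36 and 3.86 in resistant DU145 cells, and at 15.9 and 16.2 in sensitive and 1.82 and 1.79 in resistant PC3 cells. C1R was at 27.0 and 26.1 CPM in sensitive and 3.52 and 9.08 in resistant DU145 cells, and at 49.1 and 45.3 in sensitive and 4.53 and 5.71 in resistant PC3 cells. For both genes the resistant libraries of each line were all below the sensitive ones. The additive log2 fold change was -3.65 ± 0.40 for C1S (adjusted p = 0.00661) and -2.64 ± 0.36 for C1R (adjusted p = 0.012, both by edgeR).

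CGREF1, a secreted growth regulator gene, had a fall of nearly equal size in both lines. It was at 56.6 and 55.7 CPM in sensitive and 16.5 and 16.2 in resistant DU145 cells, and at 15 and 14.1 in sensitive and 4.11 and 4.35 in resistant PC3 cells. The libraries of each group lay close together and the groups of a line were far apart. The log2 fold change was -1.78 in each line, with a difference of -0.01 (95% interval -0.57 to 0.55).

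Transcription factors and signalling genes were also among the 15 coding genes with the largest shared fall. CREB3L1, a membrane bound factor released under endoplasmic reticulum stress, fell from 1.6 and 0.733 CPM to 0.182 and 0.111 in DU145 and from 36.0 and 32.9 to 1.62 and 1.06 in PC3. SOX7, an SRY-box factor, fell from 3.53 and 2.82 CPM to 0.576 and 0.444 in DU145 and from 44 and 61.1 to 10.7 and 14.4 in PC3. The sensitive DU145 libraries of both genes were below the sensitive PC3 libraries, and the groups of neither line overlapped. WNT9A, a Wnt ligand, fell more in PC3 than in DU145, by 1.36 on the log2 scale. DTX4, a Deltex ubiquitin ligase of the Notch pathway, fell from at least 27.8 to at most 4.64 CPM in DU145 and from at least 6.98 to at most 2.06 CPM in PC3.

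The monocarboxylate transporter gene SLC16A5 fell from 31.9 and 40.3 CPM to 4.91 and 7.58 in DU145 and from 1.37 and 2.50 to 0.471 and 0.152 in PC3, with a difference between the lines of -0.06 (95% interval -1.45 to 1.34). HHIPL2 fell by 2.73 and HSBP1L1 by 2.21 on the log2 scale in the additive test. MX1, given with the interferon genes below, is also among the 15. These genes kept their call whichever library was left out, and the remaining 4 of the 15 did not. TCEA3, a transcription elongation factor, lost it without either resistant PC3 library (adjusted p up to 0.0525), and FAM84B without resistant DU145 library 2 or resistant PC3 library 1 (up to 0.0606). PI3, the elastase inhibitor elafin, lost it without any 1 of the 4 DU145 libraries, sensitive PC3 library 2 or resistant PC3 library 1 (up to 0.131). SLC12A8 lost it without any 1 of the DU145 or the sensitive PC3 libraries (up to 0.0673).

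**Figure D3:**
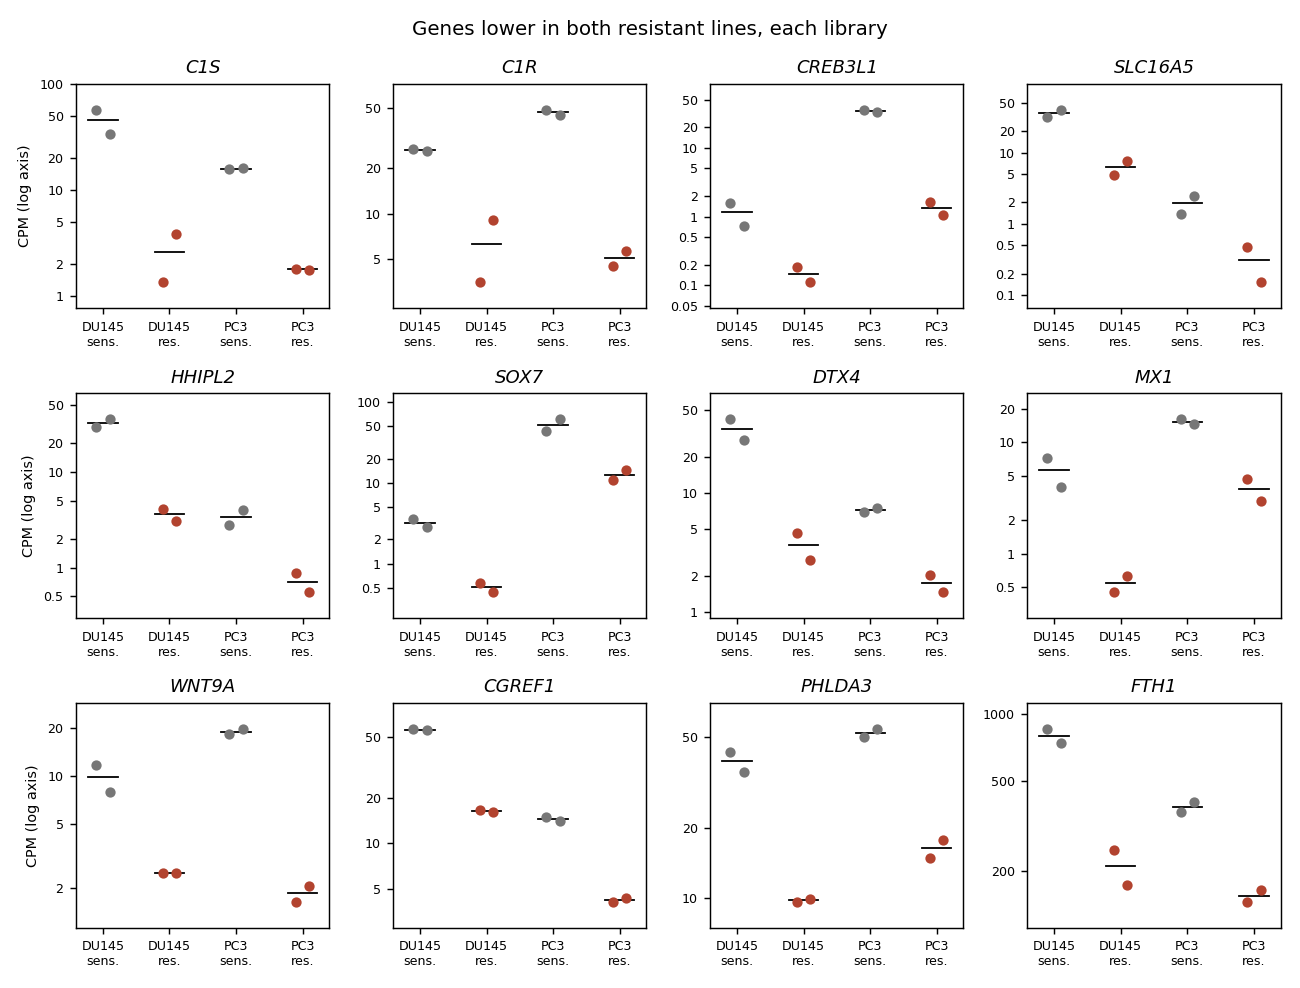
CPM (log axis) in each library for 12 genes lower in both resistant lines, with grey points for sensitive and red points for resistant libraries and a bar at the group mean. In every panel both red points of a line lie below both grey points of that line, as the rule requires. The 2 points of each CGREF1 group lie close together.

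Of the shared genes, 36 of the higher (8.02%) and 28 of the lower (6.44%) were lncRNA genes, beside 17.9% of all genes tested. Shared genes averaging 5 CPM or more and not annotated as protein coding were ranked by their smaller within-line change. The largest rises were those of AC137932.6, TP53TG1, RP11-284F21.10, LINC00511 and SNHG11. The largest falls were those of RP11-159D12.2, RP11-479G22.8, RHPN1-AS1, SNHG19 and LINC00294. RP11-479G22.8 had no entry in the annotation used, so its type is not known. TP53TG1 rose from 2.94 and 2.65 CPM to 6.88 and 10.9 in DU145 and from 5.58 and 5.71 to 12.9 and 12.7 in PC3. RP11-159D12.2 fell from 11.6 and 21.1 CPM to 4.24 and 6.66 in DU145 and from 22.9 and 30.4 to 4.04 and 4.65 in PC3. All 10 of these genes lost their call without at least 1 of the 8 libraries, RP11-159D12.2 only without resistant PC3 library 1 (adjusted p = 0.0521) and RP11-479G22.8 only without resistant DU145 library 2 (adjusted p = 0.0505, both by edgeR).

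Some genes passed the additive test although 1 line carried nearly all of the change. SLCO3A1 was at 0 counts in all 4 DU145 libraries and fell from 24.3 and 27.3 CPM to 0.112 and 0.0506 in PC3. LRRC38 and LARGE likewise were near 0 in DU145 (at most 0.0561 CPM), falling and rising respectively in PC3. CYP4F3 fell from 29.7 and 39.9 CPM to 0.212 and 0.167 in DU145 and was at most 0.213 CPM in PC3. IGF2, the insulin-like growth factor, rose in both lines, from 1.04 and 2.37 CPM to 18.8 and 18.5 in DU145 and from 0.762 and 0.486 to 153 and 173 in PC3, but by 4.56 more on the log2 scale in PC3. EPHB6 rose by 4.65 more in PC3. The size limit kept these 6 genes out of the shared set. With each library left out in turn, SLCO3A1 kept its call in all 8 fits, LRRC38 in 6, IGF2 and LARGE in 4, EPHB6 in 3 and CYP4F3 in 1 (adjusted p up to 0.146). Nearest to that limit were DNAJC6 and CHST2 inside it, with ratios of 0.50 and 0.51, and MRE11A and SYNGR2 outside it, both with 0.50 after rounding.

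Genes in lists for processes tied to taxanes, stress and cell identity were counted in the same way. Of 715 distinct list genes tested, 75 (10.5%) passed the additive test and 57 (7.97%) changed alike, beside 6.58% and 4.37% of all genes tested. The lists were chosen with earlier results of these data known, so the higher shares are not independent evidence.

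Tubulin is the drug's own target. Of 14 tubulin genes 0 passed in the additive test, beside 6.58% of all genes tested, and the list's median was 0.18 on the log2 scale. TUBB2B passed within each line but rose by 1.69 in DU145 and by 6.39 in PC3, with an additive adjusted p of 0.0742 (edgeR). TUBB3, the isotype often studied in taxane resistance, was at 15.9 to 24.8 CPM in sensitive and 9.41 to 11.9 in resistant DU145 cells and at 6.26 to 8.59 and 4.90 to 7.13 in PC3, where the groups overlapped (additive adjusted p = 0.203, edgeR). Of 24 microtubule associated proteins 3 were higher and 0 lower, beside 3.43% and 3.15% of all genes tested. STMN3, a stathmin family member that binds tubulin, rose from 2.13 and 2.03 CPM to 4.70 and 3.94 in DU145 and from 17.2 and 14.6 to 43.7 and 39.7 in PC3 and kept its call whichever library was left out. The end binding proteins MAPRE1 and MAPRE2 had additive log2 fold changes of 0.81 and 0.82, and kept their calls in 1 and 0 of the 8 fits with 1 library left out. Of 30 spindle and checkpoint genes 2 were higher, the kinase AURKB by 0.69 and the checkpoint protein BUB3 by 0.56, and they kept their calls in 1 and 0 of those 8 fits.

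Targets of NRF2, the regulator of the antioxidant response, moved down where they passed: of 24 tested, 5 were lower, beside 3.15% of all genes. The list's median was -0.81 on the log2 scale (-1.10 for the DU145 change and -0.21 for the PC3 change), beside 0.00 over all genes. TXNRD1, thioredoxin reductase, fell from 3370 and 3430 CPM to 1790 and 1620 in DU145 and from 2570 and 2290 to 785 and 625 in PC3. FTH1, the ferritin heavy chain, fell from 852 and 740 to 248 and 174 in DU145 and from 366 and 406 to 146 and 165 in PC3. It has many processed copies in the genome, so its count is uncertain. Both genes kept their call whichever library was left out, whereas the quinone reductase NQO1, the epoxide hydrolase EPHX1 and the transketolase TKT kept it in 1 of 8 fits each, with adjusted p of up to 0.0972, 0.116 and 0.116. Of the 5 genes 3 changed alike, while EPHX1 (-0.42 in DU145, -1.36 in PC3) and TKT (-1.08 and -0.50) missed the size limit. The p53 target list held 1 gene changed alike among 24, a share near the 4.37% of all genes tested. That gene was PHLDA3, an inhibitor of AKT signalling. It fell from 42.8 and 35.3 CPM to 9.58 and 9.86 in DU145 and from 50 and 53.9 to 14.9 and 17.8 in PC3, with no overlap in either line.

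Interferon stimulated genes that passed were lower, 4 of 32, beside 3.15% of all genes tested. The median of the list was -0.65 on the log2 scale. MX1, an antiviral GTPase, was at 7.21 and 3.95 CPM in sensitive and 0.455 and 0.639 in resistant DU145 cells, and at 16.0 and 14.4 and then 4.64 and 2.98 in PC3. OASL and IFIT1, both antiviral effectors, fell by 1.89 and 1.32 on the log2 scale in the additive test. These 3 genes kept their call whichever library was left out, and OAS1 lost it with each library left out (adjusted p up to 0.0884). The list as a whole was unlike in the 2 lines, since in DU145 it held as many genes higher as lower (6 each) whereas in PC3 22 were lower and 0 higher, so the shared fall covers these 4 genes and not the list.

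Inflammatory genes moved in both directions. Of 23 tested, 5 were higher and 3 lower in the additive test, beside 3.43% and 3.15% of all genes tested. The chemokine CXCL5 rose from 12.4 and 7.02 CPM to 48.4 and 43.4 in DU145 and from 1.58 and 0.843 to 16.4 and 20.3 in PC3. CCL2, a monocyte chemokine, was near 0 throughout, with at most 0.0841 CPM in sensitive libraries and 0.381 to 3 in resistant ones. ICAM1, the adhesion molecule that leukocytes bind, fell from 111 and 108 CPM to 18.1 and 17 in DU145 and from 69.1 and 67.6 to 23.8 and 28.4 in PC3. These 3 genes kept their call whichever library was left out. IL1A, CXCL1 and CXCL8 were the other genes higher and kept it in 4, 1 and 1 of 8 fits, and CCL5 and NFKBIA, the other genes lower, in 3 and 0 (adjusted p up to 0.151 for NFKBIA). The immediate early list likewise held 3 genes higher (ATF3, JUN and KLF4) and 1 lower (JUNB) of 21, which kept their calls in 1, 2, 1 and 3 of those fits.

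Among 16 integrin subunits, ITGB3 and ITGA2 were higher and ITGB1 and ITGB2 lower, and all 4 kept their call whichever library was left out. Over all genes tested 3.43% were higher and 3.15% lower. The list's median was 0.14 on the log2 scale. ITGA2, the collagen receptor subunit, rose from 66.8 and 56.2 CPM to 223 and 268 in DU145 and from 30.4 and 34.6 to 244 and 405 in PC3. ITGB1, the beta subunit shared by many integrins, fell from 3010 and 2830 CPM to 1480 and 1260 in DU145 and from 4570 and 4750 to 2190 and 2840 in PC3. Neither gene's groups overlapped in either line, so that subunits of 1 family moved in opposite directions in the same cells.

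Smaller sets of shared genes came from other lists. The lysosomal genes CTSB, a cathepsin, and NPC2, a cholesterol carrier, fell by 1.15 and 0.99 on the log2 scale. They were the only 2 of 28 to pass, a share near the 6.58% of all genes tested. Of 32 receptor tyrosine kinases and ligands 2 were higher and 2 lower in the additive test, beside 3.43% and 3.15% of all genes tested. ERBB2, the HER2 receptor, fell from 185 and 163 CPM to 97.9 and 86.8 in DU145 and from 55.7 and 53.7 to 24.8 and 24.7 in PC3. Of 33 Wnt genes 3 were higher and 1 lower, beside the same shares of all genes. The receptor FZD1 rose by 1.97 and LGR4, a receptor for R-spondins, fell by 0.96. The glycolytic aldolase ALDOC rose by 1.77, and the aminopeptidase ERAP1 by 0.92. All of these kept their call whichever library was left out. The receptor kinases ROR2 and EPHB2 also changed alike, with additive log2 fold changes of 2.82 and 0.99, and each kept its call in 3 of the 8 fits (adjusted p up to 0.0624 and 0.0667). ROR2 was at 0 in both sensitive PC3 libraries and at most at 0.0449 CPM in the resistant ones, so its rise rests on DU145. In the Wnt list the factor LEF1 (additive 4.35) and the ligand WNT5B (1.87) passed but missed the size limit, and kept their calls in 1 and 0 of the 8 fits (adjusted p up to 0.0921 and 0.116). Of 26 epithelial junction genes 0 changed alike, and plakoglobin (JUP), which passed the additive test, fell by 2.46 in DU145 and by 1.10 in PC3. In DU145 17 genes of that list were lower and 5 higher, whereas in PC3 5 were lower and 11 higher.

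In the list of replication-dependent histones, 4 of 12 genes were lower, beside 3.15% of all genes tested. The list's median was -0.70 on the log2 scale. Its member HIST1H1B went the other way, by 1.35 in DU145 and 1.80 in PC3, and did not pass (additive adjusted p = 0.162, edgeR). Of 34 DNA replication genes 1 was higher and 0 lower, beside 3.43% and 3.15% of all genes tested. Whether the histone counts bear on replication was not tested. HIST1H2AC fell by 1.30 on the log2 scale and kept its call whichever library was left out, while HIST2H2BE, HIST1H2BD and HIST1H1C kept theirs in 0, 0 and 2 of the 8 fits (adjusted p up to 0.117). Histone genes are near-identical copies, so counts among them are uncertain. In cholesterol synthesis, the sterol reductase TM7SF2 fell by 1.57 and kept its call throughout. The desaturase SC5D rose by 1.06 and lost its call without either sensitive PC3 library (adjusted p up to 0.056). Of the 10 transcription factors that head the study's network, 2 had less RNA, CUX1 by 0.71 and NFYB by 0.63, with calls kept in 1 and 0 of the 8 fits. The network holds factor activity inferred from single cells and not the RNA level of the factor, so the measures are unlike. The paper places CUX1 in the sensitive network and gives NFYB a higher activity in the resistant networks.

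**Figure D4:**
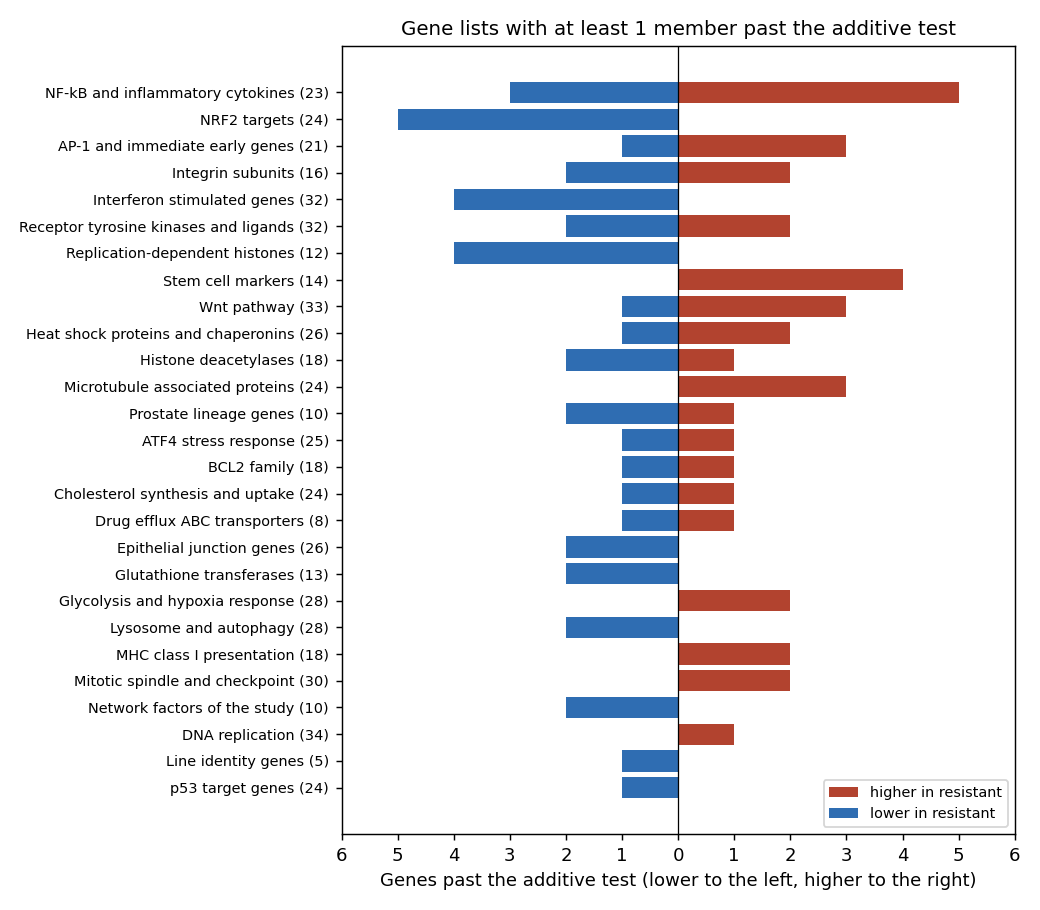
Number of genes past the additive test in each of 27 gene lists with at least 1 such gene, with genes higher in resistant cells to the right, genes lower to the left and the number tested in parentheses. NRF2 targets, interferon stimulated genes and histones have bars on the lower side only, and inflammatory genes on both sides.

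In 9 lists 0 genes passed: tubulin isotypes, oxidative phosphorylation, proteasome subunits, mesenchymal genes, the TGF-beta pathway, neuroendocrine markers, carriers of amino acids and glucose, leukocyte markers, and fibroblast and endothelial markers. Proteasome subunits were opposed between the lines, since of 31 genes 11 rose and 1 fell in DU145, while 1 rose and 11 fell in PC3.

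The shared genes were unevenly placed along the genome. On chromosome 20, 46 of 558 genes tested (8.24%) were higher in both lines and 1 was lower. On chromosome 5, 61 of 904 (6.75%) were higher and 5 lower. On chromosome 10, 45 of 805 (5.59%) were lower and 26 higher, and on chromosome 8, 38 of 738 (5.15%) were lower and 10 higher. Over all genes of chromosome 20 the median change was 0.18 (DU145) and 0.45 (PC3) on the log2 scale, and over chromosome 5 it was 0.24 in each. Parts of both chromosomes went the other way in 1 line: the first 20 Mb of chromosome 20 had medians of -0.16 in DU145 and 0.60 in PC3, and on chromosome 5 the PC3 median was -0.16 from 60 to 80 Mb and -0.30 from 120 to 140 Mb. Chromosome 8 had medians of -0.35 in DU145 and 0.13 in PC3. These counts fell with 1 library left out, to between 10 and 25 on chromosome 20 and between 14 and 37 on chromosome 5, as the total of shared genes fell. Copy number was not measured, and its part in these counts was not tested.

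**Figure D5:**
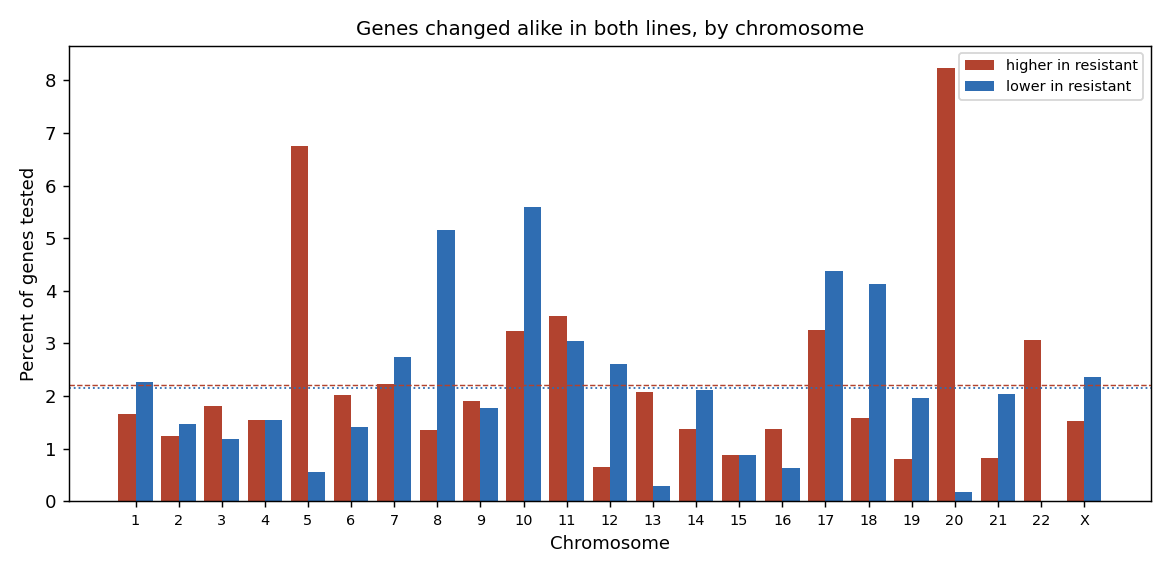
Percent of the genes tested on each chromosome that were higher (red) or lower (blue) in both resistant lines, with the share over all genes as a dashed red line (2.22%) and a dotted blue line (2.15%). Chromosomes 20 and 5 have the highest red bars and chromosomes 10 and 8 the highest blue bars.

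In some windows of 20 Mb the leaning was sharper, beside 2.22% higher and 2.15% lower in both lines over all genes tested. Between 120 and 140 Mb of chromosome 11, 14 of 93 genes were higher in both lines, with medians of 0.58 in DU145 and 0.44 in PC3. A high count did not need a shift of the whole window in both lines. The first 20 Mb of chromosome 5 had 13 of 76 genes higher in both, with medians of 0.06 in DU145 and 0.82 in PC3. Between 20 and 40 Mb of chromosome 10, 17 of 81 were lower, with medians of -0.63 and -0.48, and between 60 and 80 Mb of chromosome 17, 29 of 236 were lower, with medians of -0.42 and -0.40. The window of chromosome 7 that holds ABCB1, from 80 to 100 Mb, had 11 of 109 genes higher in both lines, with a median of 0.57 in DU145 and 0.01 in PC3. Of 156 windows with at least 20 genes tested, 12 had a median of at least 0.2 in both lines, 6 had one of at most -0.2 in both, and 14 had medians beyond 0.2 in opposite directions.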

How the data were processed

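What the authors deposited is a file of raw gene counts for each library, without normalization. Per the submitters' processing notes reads were aligned with Bowtie to hg38. The version, read counter, annotation and strandedness are not stated in the sources, so overlapping, antisense and near-identical genes cannot be told apart. The reads carry no molecular identifiers. Libraries were grouped by their labels. The paper describes single cell rather than bulk libraries of these cells.

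Genes were kept by filterByExpr by group, scaled by TMM (factors 0.951 to 1.038) and fitted with edgeR 4.0.16 in R 4.3.3. The additive test (line plus resistance, 5 residual degrees of freedom) and contrasts within and between lines from a fit with a mean per group (4 residual degrees of freedom) used the two-sided quasi-likelihood test, with Benjamini-Hochberg adjustment over 20238 genes and a threshold of 0.05. The additive fit counts a change that differs between the lines as error. Intervals of a difference use the t distribution. Libraries of a group differed by more than sampling noise (chi-square per degree of freedom 18.72 to 48.85). CPM are the only levels given, so genes were not compared with each other in level. Coordinates and biotypes are those of GENCODE 44, which holds 56558 of the 60554 IDs.

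Genes and lists were chosen with earlier results of these data known. Genes named include, per direction, 15 coding genes and 5 not annotated as coding. These changed alike, had a mean of at least 5 CPM and had the largest smaller within-line change. Also named are the 6 largest outside the size limit, those nearest the limit, up to 4 passing members of a list, and ABCB1, ABCB4 and TUBB3. Some genes the rule takes are not reported. In all, 36 lists were counted without a set test. The steps were tested on simulated data. Alternatives were RLE scaling, DESeq2 1.42.0, 2 other filters, replicate number as a block, 1 library left out, stricter thresholds and other definitions of a shared change.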

Additional observations from a re-analysis of the deposited data

Results flagged for a closer look

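For 26 genes named above, the change passed the additive test and also differed between the lines by the contrast of PC3 minus DU145 (adjusted p under 0.05, edgeR). The differences in log2 fold change are given in parentheses.

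The rise in resistant cells was larger in PC3 for CD163L1 (3.25), RTN1 (3.04), NOG (2.91), TRABD2A (1.31), DNAJC6 (2.47), EPHB6 (4.65), IGF2 (4.56), LEF1 (4.58), MAPRE2 (0.81), CXCL5 (1.67) and ITGA2 (1.32). It was larger in DU145 for ABCB1 (-4.43) and CHST2 (-1.1). The fall in resistant cells was larger in PC3 for TCEA3 (-1.95), WNT9A (-1.36), SYNGR2 (-0.78), HIST1H1C (-0.62), TXNRD1 (-0.79), EPHX1 (-0.95), OASL (-1.07) and NFKBIA (-0.57). It was larger in DU145 for FAM84B (1.82), CYP4F3 (6.15), ICAM1 (1.26), JUP (1.36) and TM7SF2 (0.83). Within 1 line alone, EPHB6 and NFKBIA did not pass in DU145 and CYP4F3 did not pass in PC3. Of these differences the largest was that of CYP4F3, a fatty acid hydroxylase, which fell from 29.7 and 39.9 to 0.212 and 0.167 CPM in DU145 and was between 0.0449 and 0.213 CPM in all PC3 libraries. For ABCB1 the resistant DU145 libraries were at 1220 and 1010 CPM and the resistant PC3 libraries at 94.8 and 84.4. These genes were chosen in part for the size of their change, so their number says nothing of how often the lines differed, which was the case for 34.3% of all genes tested.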

How the results depend on the processing

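Counts of genes past the additive test were 694 higher and 637 lower. They were 1546 and 1553 with DESeq2, 1140 higher with no low count filter, 52 and 46 at an adjusted p under 0.01, and 2872 and 3003 when the average of the within-line changes was tested, which does not count differences between lines as error. With 1 library left out they ranged from 151 to 419 higher and 171 to 358 lower, and each of the 8 libraries moved them by over 1.5 times. Genes changed alike, 449 and 435, were 736 and 737 with DESeq2, 48 and 43 at an adjusted p under 0.01, 282 and 267 with a size limit of 0.67, and 119 to 275 and 135 to 285 with 1 library left out. Genes passing in each line, 531 and 563, were 225 and 239 at an adjusted p under 0.01, and 319 to 466 and 337 to 484 with 1 library left out, lowest without a sensitive PC3 library. Part of each fall reflects fewer libraries in the fit. The other alternatives kept these counts within 1.5 times.

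With replicate number as a block, 2 genes were higher and 0 lower in the additive test, both changed alike (TMEM200A and ILDR2), and 871 and 954 passed in each line. Deviations from the group mean, compared across genes between same-numbered sensitive and resistant libraries, correlated by 0.323 in DU145 and 0.0861 in PC3. These are not correlations of the levels themselves. Whether the numbers pair the libraries is not shown by these values.

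Of 100 genes named that passed, RLE scaling and DESeq2 lost 1 call each. Of the 100, 50 kept their call with each library left out in turn, and 0 changed direction under any alternative. Depth limits genes near 0 in 1 line, such as TMEM200A, or in both, such as CCL2.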
